A study of Mus musculus with 6 samples.

Results

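The genes of voltage-gated calcium channels, voltage-gated sodium channels and transient receptor potential (TRP) channels were followed in 3 cell populations sorted from mouse islets. They were taken from the table by symbol, as all rows that begin with Cacna, Cacnb, Cacng, Scn and a digit, or Trpc, Trpm or Trpv and a digit. This gave 63 of 46959 rows: 26 calcium channel subunit genes, 14 sodium channel genes, 21 TRP channel genes, and 2 rows that match by letters only, Trpc4ap (a TRPC4-associated protein) and Trpc5os (an opposite-strand transcript). Of the 63, 31 had at least 1 RPKM (reads per kilobase of gene, scaled to library size) in at least 2 of the 6 libraries, as did 13367 genes of the table. Those 31 are 15 calcium, 6 sodium and 9 TRP channel genes and Trpc4ap. Of them, 3 (Trpc6, Trpm2 and Trpv2) reached 1 RPKM in immature libraries alone and 6 (Cacna2d4, Scn2b, Cacna2d2, Cacna1g, Trpc7 and Cacna1h) in double negative libraries alone, so these 9 had to differ between groups.

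RNA was sequenced from islets of adult bitransgenic mice that carried Ins1-H2b-mCherry, a nuclear reporter driven by the insulin gene Ins1, and Ucn3-eGFP, a reporter driven by the gene of urocortin 3. Immature beta cells were those with mCherry but no eGFP, mature beta cells had both colours, and double negative (non-beta) cells had neither. Each population has 2 libraries, labelled male (replicate 1) and female (replicate 2), whereas the study's design describes replicate groups of pooled female mice. Islets were cultured overnight and dissociated with trypsin before the sort, and a population defined by a reporter holds whatever cells fall in its gate.

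Voltage-gated calcium channels open when the membrane depolarizes. They consist of a pore-forming alpha1 subunit with auxiliary beta and alpha2delta subunits, which set the trafficking and gating of the pore. In beta cells, glucose metabolism closes ATP-sensitive potassium channels, the membrane depolarizes, and calcium that enters through L-type and other calcium channels triggers insulin exocytosis. Voltage-gated sodium channels shape the upstroke of action potentials in islet cells, and TRP channels carry background, store-linked or calcium-activated cation currents.

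The libraries differed in depth and in the RNA of other cells. The RPKM steps correspond to 2393841 and 3448926 reads in the immature libraries and to between 22063878 and 26824378 reads in the others, so the low channel genes rest on few reads in immature cells. Summed levels of 8 alpha cell markers were 29250 and 19930 RPKM in immature, 700 and 906 RPKM in mature and 178400 and 172000 RPKM in double negative libraries. The sums in the same order were 785.5 and 738.8, 3.609 and 2.345, and 179.1 and 189.1 RPKM for 8 endothelial markers. They were 1339 and 1386, 19.11 and 19.41, and 36.05 and 39.13 RPKM for 8 macrophage and immune markers. For 8 mesenchymal markers they were 141.8 and 99.65, 0.3993 and 0.4937, and 21.63 and 26.84 RPKM. The 8 acinar markers summed to 8932 and 27990 RPKM in immature, 177.8 and 123.6 RPKM in mature and 255.1 and 2127 RPKM in double negative libraries, with 1 of them at 0 in every library. No endothelial marker was at 0 in any library, 1 and 2 immune markers were at 0 in the mature libraries, and 1 mesenchymal marker was at 0 in mature replicate 1. Beta cells were identified by Ins1, with 11992 and 13389 RPKM in immature, 46606 and 49447 RPKM in mature and 336 and 735 RPKM in double negative libraries. In these bulk samples fewer cells of a type and less RNA per cell cannot be told apart, and the part of any of these cells in the channel results was not tested.

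Promoters are shown for 4 of the channel genes that are treated below and that have 1 annotated start in the RefSeq table, namely the pair highest in mature relative to double negative cells and the pair lowest. Each is 300 bases (250 before and 50 after the start, GRCm38.p6, 5′ to 3′ on the gene's strand), with the GC box GGGCGG, on either strand, in capitals. Trpm5 is at chr7:143094593-143094892 (minus strand), Trpc1 at chr9:95750299-95750598 (minus strand), Cacna2d3 at chr14:29721815-29722114 (minus strand) and Cacna2d2 at chr9:107399630-107399929 (plus strand).
Trpm5: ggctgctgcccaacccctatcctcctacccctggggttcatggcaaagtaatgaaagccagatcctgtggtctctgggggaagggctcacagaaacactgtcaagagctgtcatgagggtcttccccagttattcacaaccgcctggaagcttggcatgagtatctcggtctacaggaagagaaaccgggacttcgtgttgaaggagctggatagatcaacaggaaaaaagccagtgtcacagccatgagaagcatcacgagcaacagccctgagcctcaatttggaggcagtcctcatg
Trpc1: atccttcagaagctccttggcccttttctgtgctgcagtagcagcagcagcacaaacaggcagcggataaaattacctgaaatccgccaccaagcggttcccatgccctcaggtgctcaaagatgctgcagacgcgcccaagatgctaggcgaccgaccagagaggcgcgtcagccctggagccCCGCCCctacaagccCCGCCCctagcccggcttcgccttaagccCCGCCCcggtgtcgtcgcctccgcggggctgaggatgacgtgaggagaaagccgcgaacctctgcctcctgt
Cacna2d3: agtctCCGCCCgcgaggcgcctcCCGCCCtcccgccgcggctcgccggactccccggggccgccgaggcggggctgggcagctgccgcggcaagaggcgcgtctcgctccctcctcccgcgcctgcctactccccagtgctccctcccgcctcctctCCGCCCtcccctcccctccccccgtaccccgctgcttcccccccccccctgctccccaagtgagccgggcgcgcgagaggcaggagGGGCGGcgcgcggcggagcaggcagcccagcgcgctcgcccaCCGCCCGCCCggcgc
Cacna2d2: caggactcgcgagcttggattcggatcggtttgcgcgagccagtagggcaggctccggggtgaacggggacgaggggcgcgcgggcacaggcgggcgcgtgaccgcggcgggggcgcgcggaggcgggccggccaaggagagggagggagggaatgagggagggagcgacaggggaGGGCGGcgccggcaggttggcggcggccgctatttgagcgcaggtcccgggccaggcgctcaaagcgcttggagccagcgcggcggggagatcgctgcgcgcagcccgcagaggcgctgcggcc
The Trpm5 promoter has a GC content of 53.0%, 5 CpG dinucleotides and no GC box. The other promoters hold 22 (Trpc1), 41 (Cacna2d3) and 43 (Cacna2d2) CpG dinucleotides, against a median of 7 (quartiles 3 and 20) over 32851 promoters, and 3, 6 and 1 GC boxes. The GC box was found in 35.7% of those promoters. No TATAAA (13.6% of promoters) and no TAATTA (5.3%) was found in the 4 windows on either strand, and TGACG (20.8%) was found only in that of Trpc1, in 2 places. Trpm5 and Trpc1, both highest in mature cells, thus differ in base composition (GC content 53.0% and 63.0%), and a match to these letters is a description and no binding site.

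Differences are on the log2(RPKM + 1) scale, tested with limma over all 13367 genes with Benjamini-Hochberg adjustment and called at 0.05. In immature relative to mature cells, 22 of the 31 were higher, 3 lower and 6 did not pass. Over all tested genes 65.3% passed, 49.8% higher and 15.5% lower. The median difference was 0.74 for the 31 and 0.29 for all genes. In immature relative to double negative cells, 12 were higher, 10 lower and 9 did not pass, where 56.6% of all genes passed, 45.9% higher and 10.6% lower. The medians were 0.05 for the 31 and 0.24 for all genes. In mature relative to double negative cells, 5 were higher, 19 lower and 7 did not pass, where 54.3% of all genes passed, 23.1% higher and 31.2% lower, with medians of -0.47 and -0.08. The 3 comparisons share libraries in pairs.

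The direction of small differences depends on how libraries are scaled. The median difference of all genes between immature and mature cells moved to -0.07 under median-ratio rescaling and to -0.17 under quantile normalization. The channel calls then split into 19 higher and 6 lower (76.0% higher, against 45.2% of the calls over all genes) under median-ratio rescaling, and into 8 higher and 12 lower (40.0%, against 36.8%) under quantile normalization. Between immature and double negative cells they split into 8 higher and 14 lower (36.4%, against 49.6%), and into 6 higher and 19 lower (24.0%, against 39.7%). Under all 3 scalings, 8 channel genes were called higher in immature than in mature cells (among them Cacna1a, Cacna2d3, Cacnb3 and Trpv2) and 3 lower (Trpc1, Trpm3 and Trpm5), where 20.5% and 15.4% of all tested genes were. The counts were 6 higher and 10 lower for immature against double negative cells (20.8% and 10.6% of all genes), and 5 higher and 17 lower for mature against double negative cells (20.2% and 20% of all genes).

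**Figure D1:**
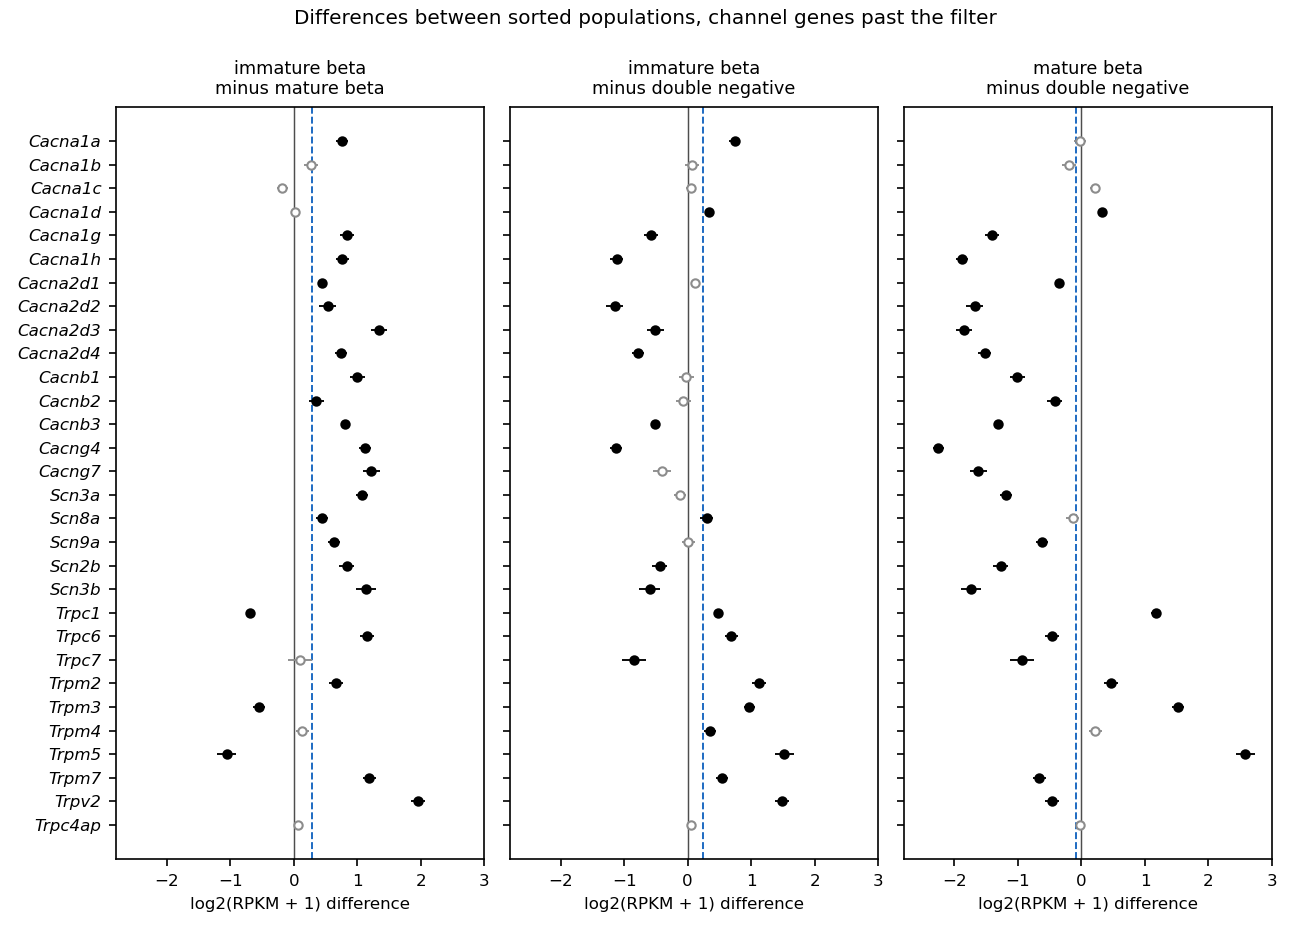
Differences of the channel genes on the log2(RPKM + 1) scale (x axis) for the 3 comparisons, with 1 SE from limma as bars. Filled points passed at an adjusted p of 0.05, the dashed line is the median of all tested genes (0.29, 0.24 and -0.08), and only Trpc1, Trpm3 and Trpm5 lie below 0 as filled points in the left panel (of those to the right, 9 turn sign under quantile normalization).

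High-voltage calcium channel pores were led by Cacna1d in every group. Cacna1a came next in immature and double negative cells, while Cacna1a and Cacna1c were close in mature cells (means of 5.71 and 5.83 RPKM). Cacna1d (ENSMUSG00000015968.17), an L-type pore that opens at comparatively negative potentials, measured 13.7 and 13.6 RPKM in immature, 13.7 and 13.4 RPKM in mature and 10.5 and 10.7 RPKM in double negative libraries. The immature and mature values overlapped (difference 0.01, SE 0.06, limma adjusted p = 0.89). Both lay above double negative cells, by 0.33 (SE 0.06, limma adjusted p = 0.00377) for immature cells, which fell to 0.04 under either other scaling, and by 0.32 (SE 0.06) for mature cells, where the limma adjusted p was 0.0522 without mature replicate 1. A stretch of 589 exonic bases of Cacna1d lies opposite Chdh, and since the library kit does not mark strand those reads cannot be told apart. The same limit holds for Cacna1a (435 exonic bases), Cacna1h (158), Scn9a (180), Cacna2d2 (82), Cacnb1 (80) and Trpc4ap (37). It also holds for Cacnb2 (618, 239 and 111) and Trpm3 (351 and 277), and Trpm2 overlaps genes on its own strand (44 and 47).

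Cacna1a (ENSMUSG00000034656.17), the P/Q-type pore, was highest in immature cells. It measured 10.8 and 9.90 RPKM in immature, 6.09 and 5.34 RPKM in mature and 5.91 and 5.71 RPKM in double negative libraries. Both immature libraries lay above all 4 others. The difference was 0.76 (SE 0.09, limma adjusted p = 0.000601) against mature and 0.74 (SE 0.09, limma adjusted p = 0.000984) against double negative cells. Both remained called at 0.37 and 0.45 under median-ratio rescaling and at 0.33 and 0.42 under quantile normalization, while mature and double negative libraries overlapped. Cacna1c, the other L-type pore in these cells, measured 4.83 and 5.27 RPKM in immature, 6.02 and 5.64 RPKM in mature and 4.90 and 4.81 RPKM in double negative libraries, and it passed in none of the 3 comparisons. Its limma adjusted p was 0.0963 in immature against mature cells, with 0.0404 without immature replicate 2, and 0.00142 and 0.00102 under median-ratio rescaling and quantile normalization (differences of -0.55 and -0.72). Mature against double negative cells gave a difference of 0.22 (limma adjusted p = 0.0575 with all 6 libraries). Without immature replicate 1 or 2 the difference was 0.22 again, but the call changed. The difference passed under median-ratio rescaling and quantile normalization, at 0.33 and 0.35 (limma adjusted p = 0.0137 and 0.0188). It also passed without the intensity trend and with voom on recovered reads. Cacna1b, the N-type pore, had 1.76 and 1.40, 1.16 and 1.12, and 1.44 and 1.46 RPKM in the same order of groups and passed in none either. For immature against mature cells its difference was 0.27 (limma adjusted p = 0.0711), which became 0.37 with a changed call without immature replicate 2. It passed without the intensity trend and with voom on recovered reads (0.45). For mature against double negative cells the difference was -0.20 (limma adjusted p = 0.175 with all 6 libraries). Without immature replicate 1 or 2 it was -0.20 again, but the call changed. That difference passed with voom on recovered reads (-0.35).

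Low-voltage pores, which carry the T-type current near the resting potential, were nearly absent from mature cells. Cacna1h and Cacna1g passed the filter through double negative libraries alone, so those had to lie above the rest. Cacna1h (ENSMUSG00000024112.16, chromosome 17) measured 0.813 and 0.772 RPKM in immature, 0.0389 and 0.0764 RPKM in mature and 2.71 and 3.07 RPKM in double negative libraries. These values rest on 19 and 26, 9 and 20, and 583 and 682 reads, and no group overlapped another. The mature level fell by 1.88 (SE 0.10, limma adjusted p = 4.54e-05) relative to double negative cells and the immature level by 1.12 (SE 0.10, limma adjusted p = 0.000393).

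Cacna1g (ENSMUSG00000020866.17) had 0.989 and 0.715 RPKM in immature, 0.0416 and 0.0405 RPKM in mature and 1.83 and 1.71 RPKM in double negative libraries, from 24 and 25, 10 and 11, and 409 and 394 reads. Immature cells exceeded mature cells by 0.76 for Cacna1h and 0.83 for Cacna1g (limma adjusted p = 0.00118 and 0.00136), differences that turned to -0.17 and -0.10 under quantile normalization. Cacna1g was lower in immature than in double negative cells by -0.58 (SE 0.11, limma adjusted p = 0.00712), and without double negative replicate 1 that call was lost at 0.0527. Cacna1i, the last low-voltage pore, stayed under the filter with 0.212 and 0.441, 0.0556 and 0.0983, and 0.993 and 0.968 RPKM in the same order.

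The alpha2delta subunits carry pores to the membrane and include the targets of gabapentinoids, and Cacna2d1 dominated these subunits everywhere. Cacna2d1 measured 15.5 and 15.2 RPKM in immature, 11.1 and 10.7 RPKM in mature and 13.6 and 14.8 RPKM in double negative libraries. It was higher in immature than in mature cells by 0.45 (SE 0.06, limma adjusted p = 0.00156), which median-ratio rescaling reduced to 0.04, and lower in mature than in double negative cells by -0.35 (SE 0.06, limma adjusted p = 0.00576), with 0.0587 without mature replicate 2. The difference of 0.11 between immature and double negative cells did not pass and turned to -0.19 under either other scaling.

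Cacna2d3 (ENSMUSG00000021991.9) was the alpha2delta gene with the clearest gap. It measured 1.81 and 1.33 RPKM in immature libraries, 0.0228 RPKM in mature replicate 1, listed at 0 in mature replicate 2, and 2.43 and 2.86 RPKM in double negative libraries. The groups did not overlap. Immature cells were higher than mature cells by 1.34 (SE 0.13, limma adjusted p = 0.000323), and mature cells were lower than double negative cells by -1.85 (SE 0.13, limma adjusted p = 0.000117). Immature cells were lower than double negative cells by -0.51 (SE 0.13, limma adjusted p = 0.0191), a call lost at 0.0538 and 0.113 without double negative replicate 1 or 2.

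Cacna2d2 measured 0.526 and 0.657 RPKM in immature, 0.0796 and 0.127 RPKM in mature and 2.23 and 2.86 RPKM in double negative libraries, from 10 and 18, 15 and 27, and 391 and 517 reads. Cacna2d4 measured 0.749 and 0.857, 0.0623 and 0.102, and 2.05 and 2.15 RPKM in the same order, from 17 and 28, 14 and 26, and 428 and 464 reads. For both, immature libraries lay between the other groups without overlap. Both genes passed the filter through double negative libraries alone, so those had to lie above the rest. The differences were -1.15 (SE 0.13, limma adjusted p = 0.00077) for Cacna2d2 and -0.78 (SE 0.10, limma adjusted p = 0.00135) for Cacna2d4 between immature and double negative cells. Between mature and double negative cells they were -1.68 and -1.52. Relative to mature cells the immature values were higher by 0.53 and 0.74, and both turned sign under quantile normalization (-0.35 and -0.22). The call of Cacna2d2 in this comparison was lost at limma adjusted p = 0.0833 and 0.0633 without mature replicate 1 or 2.

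The beta subunits sit on the cytosolic side of the pore, and all 3 that were tested were lower in mature than in double negative cells and higher in immature than in mature cells, though under quantile normalization the rise of Cacnb2 in immature cells turned to -0.42, its fall in mature cells shrank to -0.12 and did not pass, and the rise of Cacnb1 was 0.29 and did not pass. Cacnb3 (ENSMUSG00000003352.14) had the highest level of all 31 genes in immature and double negative cells, with 20.2 and 21.4 RPKM in immature, 11.6 and 11.2 RPKM in mature and 31.0 and 29.0 RPKM in double negative libraries. Its immature libraries lay between the other groups. It was higher in immature than in mature cells by 0.81 (SE 0.06, limma adjusted p = 0.000134), lower in immature than in double negative cells by -0.51 (SE 0.06, limma adjusted p = 0.0012) and lower in mature than in double negative cells by -1.32 (SE 0.06, limma adjusted p = 2.82e-05).

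Cacnb1 measured 5.26 and 4.03 RPKM in immature, 1.86 and 1.77 RPKM in mature and 4.87 and 4.51 RPKM in double negative libraries. Immature and double negative libraries overlapped, and both exceeded mature cells, with a difference of 1.0 (SE 0.12, limma adjusted p = 0.000838) for immature cells. Mature cells were lower than double negative cells by -1.01 (SE 0.12, limma adjusted p = 0.001). Cacnb2 measured 2.97 and 2.21, 1.83 and 1.76, and 2.73 and 2.75 RPKM in the same order of groups. Its rise of 0.35 in immature relative to mature cells (limma adjusted p = 0.0437) did not pass without immature replicate 1, either mature library or either double negative library (0.062 to 0.18), nor with the replicate number as a block (0.0539), nor under median-ratio rescaling, where the difference was 0.05 (0.706). The fall of Cacnb2 in mature relative to double negative cells (-0.42, limma adjusted p = 0.029) did not pass without any 1 of those 4 libraries (0.116 to 0.144).

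Genes of the gamma family, whose members Cacng4 and Cacng7 are better known as auxiliary subunits of AMPA-type glutamate receptors, followed the low-voltage pores. Cacng4 (ENSMUSG00000020723.3, chromosome 11) measured 1.29 and 1.22 RPKM in immature, 0.0354 and 0.0417 RPKM in mature and 3.89 and 3.97 RPKM in double negative libraries, from 11 and 15, 3 and 4, and 307 and 323 reads. Exact 95% Poisson intervals, which cover counting error only, ran from 0.642 to 2.30 and from 0.681 to 2.01 RPKM in the immature libraries, from 0.0073 to 0.103 and from 0.0114 to 0.107 RPKM in the mature libraries, and from 3.47 to 4.35 and from 3.55 to 4.43 RPKM in the double negative libraries. The intervals of the 3 groups did not touch. Cacng4 was lower in immature than in double negative cells by -1.13 (SE 0.09, limma adjusted p = 0.000244) and lower in mature than in double negative cells by -2.25 (SE 0.09, limma adjusted p = 1.63e-05).

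Cacng7 measured 1.54 and 1.43 RPKM in immature, 0.0864 and 0.0458 RPKM in mature and 2.73 and 1.89 RPKM in double negative libraries, from 9 and 12, 5 and 3, and 147 and 105 reads. It was higher in immature than in mature cells by 1.22 (SE 0.14, limma adjusted p = 0.000687), as was Cacng4 by 1.12 (SE 0.09), and under quantile normalization these were 0.26 and 0.16 and did not pass. Mature cells were lower than double negative cells by -1.62 (SE 0.14). Between immature and double negative cells the difference was -0.40 (limma adjusted p = 0.0546), which became -0.59 with a changed call without double negative replicate 2. That difference passed under median-ratio rescaling and quantile normalization, at -0.60 and -0.95 (limma adjusted p = 0.0165 and 0.00415), and without the intensity trend.

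**Figure D2:**
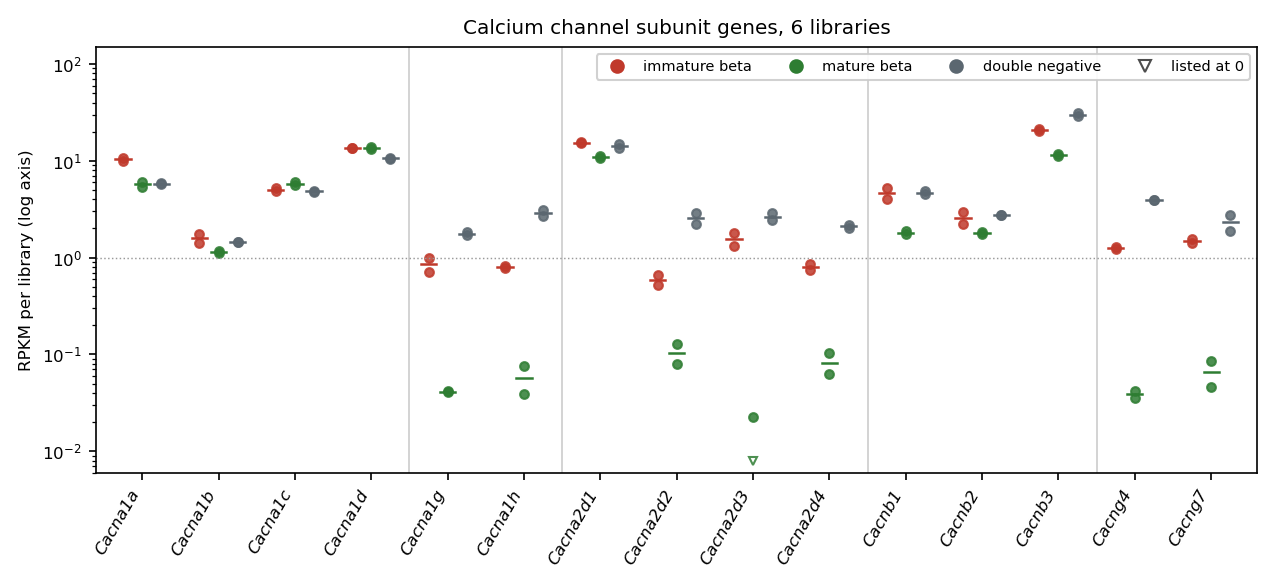
RPKM of the 15 calcium channel genes in each of the 6 libraries (log axis), with points for libraries and short lines for means of 2, and vertical lines between pores of high and low voltage, alpha2delta, beta and gamma subunits. The mature libraries reach at most 0.127 RPKM for Cacna1g, Cacna1h, Cacna2d2, Cacna2d3, Cacna2d4, Cacng4 and Cacng7, where the double negative libraries lie between 1.71 and 3.97 RPKM.

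Shares within a library do not change when the library is multiplied by a constant, as in median-ratio rescaling, and were not recomputed after quantile normalization. Of the summed RPKM of all 10 calcium pores, low-voltage pores made up 6.0% and 6.0% in immature, 0.5% and 0.8% in mature and 19.4% and 20.1% in double negative libraries. L-type pores made up 55.8% and 58.5%, 72.4% and 73.5%, and 54.3% and 54.3% in the same order. The P/Q-type gene Cacna1a took 32.3% and 30.6% in immature libraries, against 22.3% and 20.6% in mature and 20.8% and 19.9% in double negative libraries. The sum itself was 33.4 and 32.3 RPKM, 27.3 and 25.9 RPKM, and 28.5 and 28.6 RPKM. Mature cells thus had the largest L-type share and the smallest low-voltage share of the 3 groups, and immature cells the largest P/Q-type share, with no overlap of libraries. Cacna2d1 accounted for 83.4% and 84.2% of alpha2delta RPKM in immature, 98.5% and 97.9% in mature and 67.0% and 65.2% in double negative libraries. These shares are a description and were not tested.

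**Figure D3:**
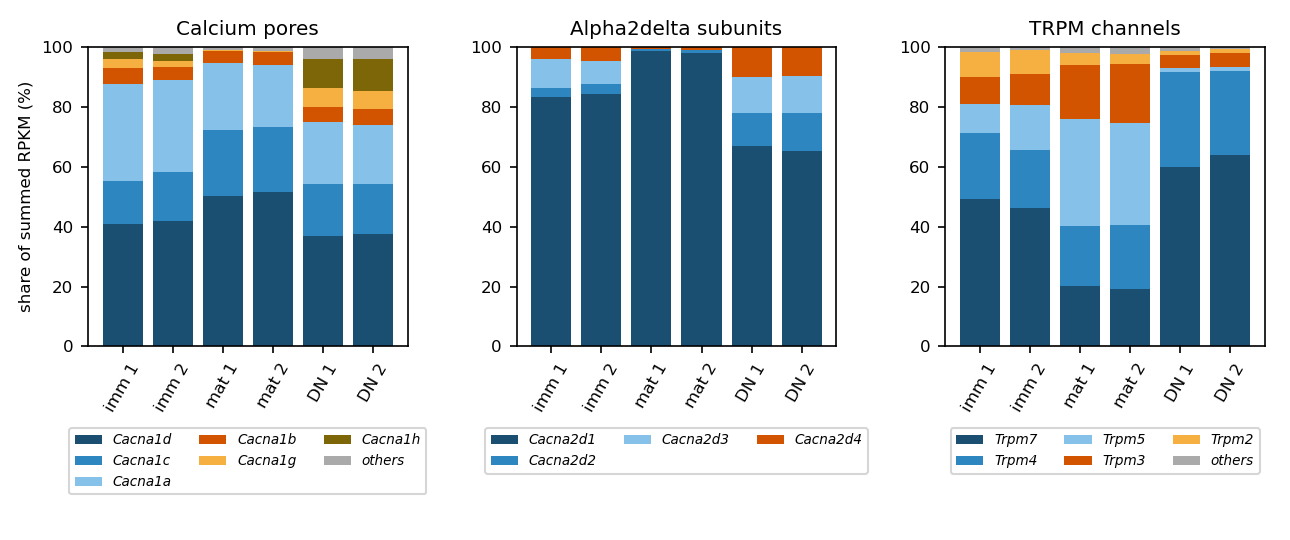
Share of summed RPKM (%) of each gene among calcium pores, alpha2delta subunits and TRPM channels, 1 bar per library (imm, immature; mat, mature; DN, double negative). Low-voltage pores (Cacna1g in light orange and Cacna1h in brown, next to the high-voltage Cacna1b in dark orange) and alpha2delta genes other than Cacna2d1 are thin in mature bars. Trpm5 takes 9.5% and 15.1% of TRPM in immature, 35.8% and 33.9% in mature and 1.2% and 1.2% in double negative libraries.

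The 3 sodium channel pores that were tested were higher in immature than in mature cells with the deposited scaling, whereas Scn8a and Scn9a turned sign under quantile normalization (-0.33 and -0.06). Relative to double negative cells, Scn3a and Scn9a were lower in mature cells, and Scn8a did not pass (-0.14, limma adjusted p = 0.317, and 0.17 on the log2 scale under quantile normalization). Scn3a, a pore abundant in developing neurons, measured 4.19 and 3.98 RPKM in immature, 1.32 and 1.52 RPKM in mature and 4.28 and 4.75 RPKM in double negative libraries. Immature libraries lay far nearer to double negative than to mature ones. The difference was 1.07 (SE 0.09, limma adjusted p = 0.000212) between immature and mature cells and -1.19 (SE 0.09, limma adjusted p = 0.000181) between mature and double negative cells. Between immature and double negative cells it was -0.12 (SE 0.09, limma adjusted p = 0.334), which became -0.37 and -0.56 (limma adjusted p = 0.019 and 0.00477) under median-ratio rescaling and quantile normalization.

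Scn9a, a pore also known from pain-sensing neurons, measured 4.02 and 4.70 RPKM in immature, 2.60 and 2.32 RPKM in mature and 4.26 and 4.34 RPKM in double negative libraries. The immature and double negative libraries overlapped. Mature cells were lower than double negative cells by -0.62 (SE 0.10, limma adjusted p = 0.00305), and immature cells were higher than mature cells by 0.63 (SE 0.10, limma adjusted p = 0.00221). Scn8a, the main pore of neuronal initial segments, had 2.52 and 3.07, 1.77 and 1.82, and 2.03 and 2.11 RPKM in the same order. Its rise in immature cells was 0.44 against mature and 0.30 against double negative cells (limma adjusted p = 0.0116 and 0.0496). The first was lost at 0.0774 and 0.0693 without mature replicate 1 or 2, and the second without any 1 library other than immature replicate 1 (0.0698 to 0.187) and with the replicate number as a block (0.0682). Among sodium pores, Scn3a held 36.1% and 31.9% of summed RPKM in immature, 21.6% and 25.3% in mature and 39.2% and 40.7% in double negative libraries.

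The sodium channel beta subunits Scn3b and Scn2b, membrane proteins that modulate the pore and act in adhesion, were lowest in mature cells. Scn3b measured 1.21 and 1.93 RPKM in immature, 0.114 and 0.188 RPKM in mature and 2.60 and 3.11 RPKM in double negative libraries. Scn2b measured 0.733 and 0.953, 0.0462 and 0.0245, and 1.65 and 1.35 RPKM in the same order. Scn2b passed the filter through double negative libraries alone, so those had to lie above the rest.

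Both Scn3b and Scn2b were lower in mature than in double negative cells, by -1.74 (SE 0.16, limma adjusted p = 0.000355) and -1.27 (SE 0.12, limma adjusted p = 0.000365). Immature cells lay between, 1.14 and 0.83 above mature cells, though under quantile normalization Scn2b turned to -0.07 and Scn3b was at 0.17 and did not pass. Against double negative cells, Scn3b and Scn2b were lower in immature cells by -0.60 and -0.44 (limma adjusted p = 0.0235 and 0.023). The Scn3b call did not pass without either mature or either double negative library (0.0513 to 0.134), nor the Scn2b call without either mature library or double negative replicate 1 (0.0658 to 0.127).

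Of the 5 tested TRPM genes, Trpm3 and Trpm5 were highest in mature cells and Trpm2, Trpm4 and Trpm7 in immature cells, though for Trpm2 and Trpm4 the difference between immature and mature cells turned sign under quantile normalization. Trpm5 (ENSMUSG00000009246.14, chromosome 7, 220 exonic bases opposite Tssc4), a calcium-activated monovalent cation channel whose loss in mice impairs glucose-induced insulin secretion, measured 1.76 and 2.67 RPKM in immature, 5.98 and 5.35 RPKM in mature and 0.106 and 0.117 RPKM in double negative libraries. The reads behind them were 27 and 59, 907 and 919, and 15 and 17. Groups did not overlap, and immature libraries lay between. Trpm5 was lower in immature than in mature cells by -1.06 (SE 0.15, limma adjusted p = 0.00156), higher in immature than in double negative cells by 1.52 (SE 0.15, limma adjusted p = 0.000553) and higher in mature than in double negative cells by 2.58 (SE 0.15, limma adjusted p = 6.03e-05). Its mean ratio of mature to double negative cells was 50.8, and Trpm5, Trpm3 and Trpc1 were the 3 channel genes with the highest mature over double negative difference.

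Trpm3, which is opened by the steroid pregnenolone sulfate and by noxious heat, measured 1.71 and 1.87 RPKM in immature, 3.03 and 3.12 RPKM in mature and 0.394 and 0.448 RPKM in double negative libraries. It was lower in immature than in mature cells by -0.55 (SE 0.09, limma adjusted p = 0.00298), higher in immature than in double negative cells by 0.97 (SE 0.09, limma adjusted p = 0.000449) and higher in mature than in double negative cells by 1.52 (SE 0.09, limma adjusted p = 6.68e-05). Trpm4, the closest relative of Trpm5 and likewise calcium-activated, showed none of this span, with 4.13 and 3.42 RPKM in immature, 3.31 and 3.38 RPKM in mature and 2.80 and 2.68 RPKM in double negative libraries. The Trpm4 difference between immature and mature cells was 0.13 (limma adjusted p = 0.29, and 0.0351 without immature replicate 2) and turned to -0.53 under quantile normalization. That between immature and double negative cells was 0.35 (limma adjusted p = 0.0283), which turned to -0.10 under quantile normalization and was lost at 0.0719 to 0.13 without either mature or either double negative library. Between mature and double negative cells it was 0.22 (limma adjusted p = 0.121 with all 6 libraries). Leaving out immature replicate 1 or 2 kept the difference at 0.22 but changed the call. That difference passed under median-ratio rescaling and quantile normalization, at 0.32 and 0.43 (limma adjusted p = 0.0302 and 0.0173).

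Trpm7 and Trpm2 were highest in immature cells. Trpm7, a channel fused to a kinase that carries magnesium and calcium in most cell types, measured 9.12 and 8.20 RPKM in immature, 3.39 and 3.04 RPKM in mature and 5.25 and 6.08 RPKM in double negative libraries. It was higher in immature than in mature cells by 1.19 (SE 0.10, limma adjusted p = 0.000186), and lower in mature than in double negative cells by -0.66 (SE 0.10, limma adjusted p = 0.00256). Its rise of 0.54 in immature relative to double negative cells (SE 0.10, limma adjusted p = 0.00599) did not pass under median-ratio rescaling or quantile normalization, with differences of 0.25 and 0.20.

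Trpm2, which opens on ADP-ribose and oxidative stress and is also known from macrophages and neutrophils, measured 1.53 and 1.39 RPKM in immature, 0.633 and 0.487 RPKM in mature and 0.121 and 0.132 RPKM in double negative libraries. It passed the filter through its immature libraries alone, so both had to lie above all others. Immature cells were higher than double negative cells by 1.12 (SE 0.11, limma adjusted p = 0.000445) and higher than mature cells by 0.66 (SE 0.11, limma adjusted p = 0.00254), a value that turned to -0.29 under quantile normalization. The rise of 0.47 in mature relative to double negative cells (limma adjusted p = 0.0123) was lost without either mature or either double negative library (0.0605 to 0.125). The macrophage gene Lyz2 measured 168 and 167 RPKM in the same immature libraries, 0.266 and 0.206 RPKM in mature and 1.18 and 0.904 RPKM in double negative libraries, and its part in the Trpm2 level was not tested.

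Trpc1, a subunit of store-linked cation channels, had the highest level of the TRP channel genes in mature cells, while Trpm7 was above it in immature and double negative cells. It measured 7.65 and 7.08 RPKM in immature, 12.8 and 12.2 RPKM in mature and 4.81 and 5.18 RPKM in double negative libraries, from 147 and 196, 2440 and 2630, and 853 and 946 reads. It was lower in immature than in mature cells by -0.69 (SE 0.07, limma adjusted p = 0.000486), higher in immature than in double negative cells by 0.48 (SE 0.07, limma adjusted p = 0.00296, reduced to 0.13 under quantile normalization) and higher in mature than in double negative cells by 1.17 (SE 0.07, limma adjusted p = 8e-05). Trpc1 made up 74.8% and 76.0% of TRPC RPKM in immature, 94.3% and 94.6% in mature and 68.2% and 66.9% in double negative libraries.

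The diacylglycerol-gated channel genes Trpc6 and Trpc7 were low throughout. Trpc6 measured 1.10 and 1.34 RPKM in immature libraries, is listed at 0 in both mature libraries and had 0.329 and 0.421 RPKM in double negative libraries. Trpc6 passed the filter through its immature libraries alone, so both had to lie above all others. It was higher in immature than in mature cells by 1.15 (SE 0.11, limma adjusted p = 0.000321) and higher than in double negative cells by 0.69 (SE 0.11, limma adjusted p = 0.00337, reduced to 0.10 under quantile normalization). Its call in mature against double negative cells (-0.46, limma adjusted p = 0.0157) was lost without any 1 of those 4 libraries (0.0517 to 0.11). Trpc7 measured 0.682 and 0.158 RPKM in immature, 0.310 and 0.304 RPKM in mature and 1.46 and 1.54 RPKM in double negative libraries. Trpc7 passed the filter through double negative libraries alone, so those had to lie above the rest. The immature values straddled the mature ones, and the difference between immature and mature cells was 0.09 (SE 0.19, limma adjusted p = 0.678), with 0.36 and a limma adjusted p of 0.00659 without immature replicate 2 and -0.17 without immature replicate 1, and it turned to -0.02 and -0.69 under median-ratio rescaling and quantile normalization. Trpc7 was lower than in double negative cells by -0.84 in immature cells (SE 0.19, limma adjusted p = 0.0109, and 0.0613 and 0.0679 without double negative replicate 1 or 2) and by -0.94 in mature cells (SE 0.19, limma adjusted p = 0.00721, and 0.054 without double negative replicate 2).

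Trpv2 (ENSMUSG00000018507.16, chromosome 11), a cation channel also known from macrophages and from endothelial and nerve cells, showed the largest difference between immature and mature cells of the 31 genes. It passed the filter through its immature libraries alone, so both had to lie above all others. It measured 4.28 and 3.94 RPKM in immature, 0.244 and 0.407 RPKM in mature and 0.920 and 0.746 RPKM in double negative libraries, from 46 and 61, 26 and 49, and 91 and 76 reads. Both immature libraries lay above all 4 others. The difference was 1.95 (SE 0.11, limma adjusted p = 4.52e-05) against mature and 1.48 (SE 0.11, limma adjusted p = 0.000213) against double negative cells. The difference between mature and double negative cells was -0.47 (limma adjusted p = 0.0159), which turned to 0.03 under quantile normalization and was lost at 0.123 and 0.0964 without mature replicate 1 or double negative replicate 1. The endothelial gene Cdh5 measured 125 and 125 RPKM in the same immature libraries, 0.497 and 0.262 RPKM in mature and 31.1 and 30.7 RPKM in double negative libraries, and the part of such cells in the Trpv2 level was not tested.

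**Figure D4:**
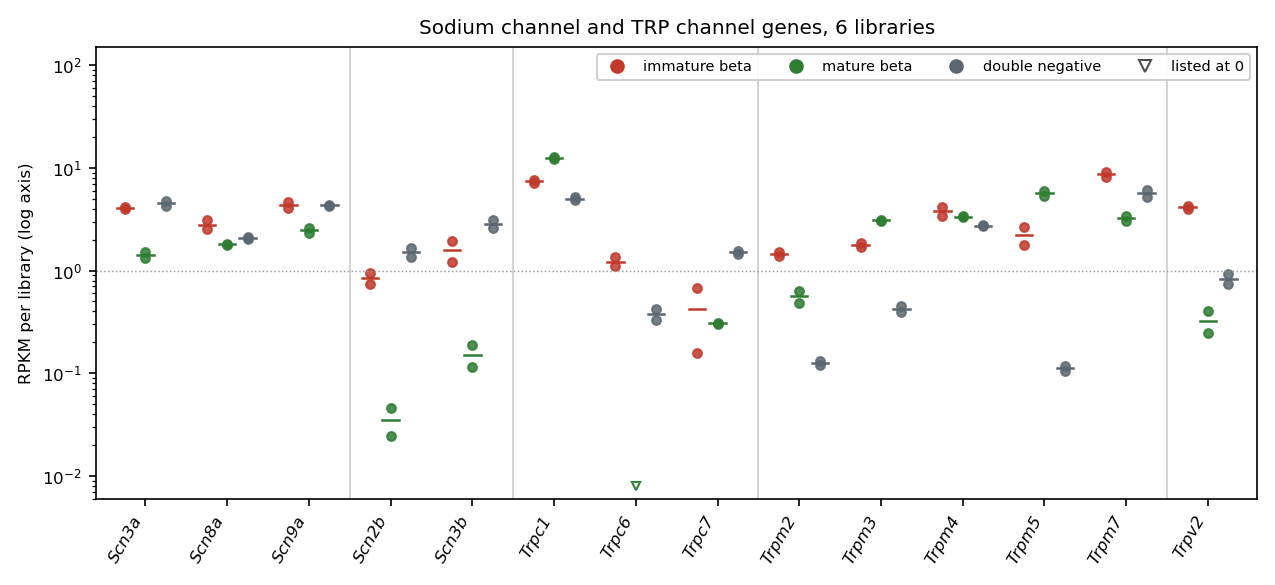
RPKM of sodium channel and TRP channel genes in each of the 6 libraries (log axis), with points for libraries, short lines for means of 2 and open triangles for values listed at 0. Mature libraries are the highest for Trpc1, Trpm3 and Trpm5, and immature libraries are the highest for Scn8a, Trpc6, Trpm2, Trpm4, Trpm7 and Trpv2.

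Trpc4ap, which encodes an associated protein and no channel, had similar means in the 3 groups. It averaged 19.1 ± 1.02 RPKM in immature cells, against 18.2 ± 0.155 RPKM in mature cells and 18.5 ± 0.649 RPKM in double negative cells (SD, n = 2 each), and it passed in none of the 3 comparisons. The limma adjusted p was 0.348 for immature against mature, 0.535 for immature against double negative and 0.786 for mature against double negative cells.

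The libraries of 2 groups often did not overlap. Genes that passed the filter through a single group alone, named above, are included, and their separation from that group was fixed in advance. Immature libraries both lay above mature ones in 25 of the 31 genes and below in 4, where 60% and 22.5% of all tested genes did so. They lay above double negative ones in 13 and below in 12 (59.1% and 17.1% of all genes). Mature libraries lay above double negative ones in 7 and below in 22 (35.5% and 49.4%).

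The place of immature cells relative to the other groups sorted the 31 genes into kinds. In 14 genes both immature libraries lay between the mature and double negative libraries: 11 with the higher end in double negative cells and 3, Trpc1, Trpm3 and Trpm5, with the higher end in mature cells, against 8.03% and 10.6% of all tested genes. Of the 11, Cacna1g, Cacna1h, Cacna2d2, Cacna2d4 and Scn2b passed the filter through double negative libraries alone, which fixed their higher end in advance. In 9 genes, among them Cacna1a, Cacna2d1, Trpm7 and Trpv2, immature libraries lay above both other groups, in none below both, and in 8 they overlapped a neighbour, against 42.4%, 6.07% and 32.9% of all tested genes. Of the 9, Trpc6, Trpm2 and Trpv2 passed the filter through immature libraries alone, which fixed their place in advance. Expressed as the percentage of the way from the mature mean to the double negative mean, on the deposited RPKM scale, the immature mean stood at 20.0% for Cacna2d2, 26.0% for Cacna1h, 31.1% for Cacng4 and 35.7% for Cacna2d4. It stood at 46.9% for Cacna1g, 50.4% for Cacnb3, 52.5% for Scn3b, 55.2% for Scn2b, 59.3% for Cacna2d3, 63.1% for Cacng7 and 86.1% for Scn3a. These genes are thus spread over most of the range.

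Hormone and marker genes of the other endocrine cells, measured the same way, stood at 13.5% (Gcg) to 34.0% (Slc7a2) for 7 alpha cell genes, 15.3% (Sst) to 31.8% (Hhex) for 5 delta cell genes and 35.9% (Ppy) and 48.0% (Pyy) for PP cells. The channel genes Cacna2d2, Cacna1h and Cacng4 lay inside the span of these 7 alpha cell genes, and the other 8 lay above it. This span leaves out an alpha cell marker that is not reported here, so the split may differ with the full list of 8 markers. The replicates of Scn3b (39.0% and 66.0%), Cacna2d3 (68.3% and 50.3%) and Cacna1g (54.9% and 39.0%) differed most among the genes higher in double negative cells. Of the genes higher in mature cells, Trpm3 stood at 48.5%, Trpm5 at 62.1% and Trpc1 at 68.5%, and 6 beta cell genes ranged between 60.4% (Slc2a2) and 80.6% (G6pc2). These positions are descriptions, and the part of cells of other types in them was not tested.

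**Figure D5:**
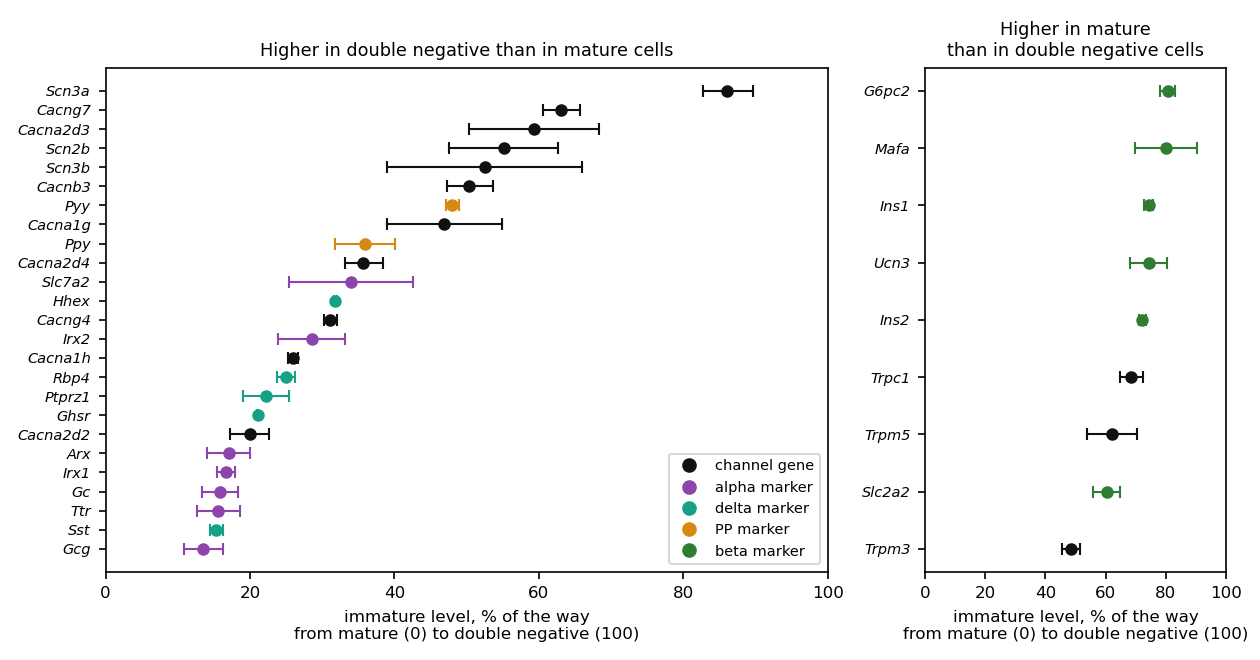
Place of the immature mean on the way from the mature mean (0%) to the double negative mean (100%) for channel genes (black) and marker genes of alpha, delta, PP and beta cells (colours), for genes whose immature libraries lie between the others. Ticks are the 2 immature libraries, and channel genes that are higher in double negative cells spread between 20.0% (Cacna2d2) and 86.1% (Scn3a).

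Of the 32 genes under the filter, 3 (Trpv5, Trpc2 and Scn10a) are listed at 0 in every library, 12 never reached 0.1 RPKM, those 3 included, 19 peaked between 0.1 and 1 RPKM, and 1, Trpv6, exceeded 1 RPKM in a single library. Trpc2 shares 2803 exonic bases with the read-through gene Xntrpc on the same strand, and reads of these genes cannot be told apart there. Trpv6, a calcium-selective channel, measured 0.106 and 1.32 RPKM in immature libraries (1 and 18 reads), at most 0.00946 RPKM in mature and 0.0345 and 0.0223 RPKM in double negative libraries. Its higher immature library, replicate 2, is also the one with the higher acinar sum, 27990 against 8932 RPKM, and that was not tested further. Cacna1e, the R-type pore, was low everywhere, between 0.141 and 0.202 RPKM.

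Genes that act with these channels were taken from a list of 35 partner genes, of which 34 are in the table and 27 were tested. In immature relative to mature cells, 15 were higher, 7 lower and 5 did not pass, that is 81.5% called against 65.3% of all genes, with a median of 0.28, against 0.29 for all genes. In immature relative to double negative cells the counts were 11, 7 and 9 (66.7% called against 56.6%, median 0.11 against 0.24), and in mature relative to double negative cells 10, 9 and 8 (70.4% against 54.3%, median -0.05 against -0.08). Rrad, an inhibitor of calcium channels, averaged 4.38 RPKM (immature cells), 0.258 RPKM (mature cells) and 1.17 RPKM (double negative cells), a rise of 2.0 (SE 0.38, limma adjusted p = 0.0049) in immature relative to mature cells. Its rise of 1.23 relative to double negative cells (limma adjusted p = 0.0356) was lost without any 1 library except immature replicate 2 (highest 0.187). Orai1, the pore of store-operated calcium entry, averaged 9.46 RPKM (immature cells), 3.10 RPKM (mature cells) and 4.10 RPKM (double negative cells), a rise of 1.35 (SE 0.13) relative to mature and 1.03 (SE 0.13) relative to double negative cells (limma adjusted p = 0.000267 and 0.00113).

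Gem, a relative of Rrad, averaged 9.92 RPKM (immature cells), 11.8 RPKM (mature cells) and 4.35 RPKM (double negative cells). It was higher than in double negative cells by 1.03 in immature and by 1.25 in mature cells (SE 0.09 each, limma adjusted p = 0.000401 and 0.000153). Immature against mature cells did not pass (-0.22, limma adjusted p = 0.0809).

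Fgf12, which binds the tail of sodium channels, averaged 7.87 RPKM (immature cells), 2.78 RPKM (mature cells) and 9.27 RPKM (double negative cells). It was higher in immature than in mature cells by 1.21 (SE 0.17, limma adjusted p = 0.0015) and lower in mature than in double negative cells by -1.44 (SE 0.17, limma adjusted p = 0.000944). Fgf14, of the same family, averaged 0.581, 0.0145 and 2.76 RPKM, lower by -1.89 (SE 0.14) in mature and by -1.26 (SE 0.14) in immature relative to double negative cells (limma adjusted p = 0.000137 and 0.000785). Stac2, an adaptor of L-type channels, averaged 1.78, 0.124 and 2.46 RPKM in the same order, higher by 1.30 (SE 0.13) in immature than in mature cells (limma adjusted p = 0.000326) and lower by -1.62 (SE 0.13) in mature than in double negative cells (limma adjusted p = 0.000177). The glucose transporter gene Slc2a2 had the largest partner differences against double negative cells, 2.81 (SE 0.19) for immature and 4.02 (SE 0.19) for mature cells (limma adjusted p = 0.000123 and 2.56e-05). Slc2a2 was lower in immature than in mature cells by -1.21 (SE 0.19, limma adjusted p = 0.00203).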

How the data were processed

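RNA was sequenced with TruSeq libraries from 2 libraries per sorted population, per the labels' protocols. The authors deposited 1 table of RPKM values with 1 column per library, each matched to a sample by its title. STAR 2.5, featureCounts, edgeR 3.14.0 and GRCm38.p4 are named per the submitters' processing notes, with no roles. The annotation release is not stated. Because RPKM is relative to each library's total, abundant transcripts reduce the values of the rest.

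Depth was recovered from RPKM steps with exonic lengths of GENCODE M21 (GRCm38). Low values (under 200 reads) were whole within 0.02 reads in 78.1% to 83.8% of cases per library, and 20 of the 31 tested channel genes were whole in all libraries. Read counts are printed only for channel genes that were whole in all libraries, some of them under the filter.

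Genes with at least 1 RPKM in at least 2 libraries were tested on log2(RPKM + 1), which understates changes of low genes. The test was limma 3.58.1 in R 4.3.3 with group means over all 6 libraries, an intensity trend, 3 residual degrees of freedom and Benjamini-Hochberg adjustment. The procedure was tested on simulated data. The design text speaks of replicate groups of pooled mice, and a p-value here reflects 2 such libraries per population. The members and lists were chosen with earlier results of these data known. Tested channel genes are named, except that 1 of them and 1 marker gene are counted but not reported here, and the 4 with the largest differences per comparison have full statistics. Alternatives were the pseudocount (0.1), filters (none, 5 RPKM), scalings, no trend, a replicate block, voom and leaving out each library.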

Additional observations from a re-analysis of the deposited data

Results flagged for a closer look

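The replicates are labelled male and female, and in 9 cases a channel gene's difference had opposite signs in replicate 1 (labelled male) and replicate 2 (labelled female). These differences were not tested, since each label has 1 library per group, and none of the 9 passed over both replicates. All values are on the log2(RPKM + 1) scale, replicate 1 before replicate 2. Between immature and mature cells they were -0.004 and 0.023 for Cacna1d and 0.361 and -0.172 for Trpc7. Between immature and double negative cells they were 0.18 and -0.038 for Cacna1b, -0.018 and 0.108 for Cacna1c, 0.091 and -0.13 for Cacnb1, 0.09 and -0.224 for Cacnb2 and -0.067 and 0.095 for Scn9a. Between mature and double negative cells they were 0.036 and -0.082 for Cacna1a and -0.048 and 0.003 for Trpc4ap. Trpc7, with the largest gap, rests on values of 0.682 and 0.158 RPKM in the immature libraries.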

How the results depend on the processing

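Counts of channel genes past the threshold stayed within 1.5 times of 25 (immature against mature), 22 (immature against double negative) and 24 (mature against double negative) in most fits. The filter of 5 RPKM left 10 of the genes, with 7, 7 and 6 called, and voom on recovered reads, for which 20 genes have whole reads, called 11 for immature against double negative cells. Those 2 alternatives fit fewer genes by construction. Leaving out 1 library gave 22 to 29, 15 to 22 and 19 to 27 calls. Populations were sorted from the same islets, and equal replicate numbers share a sex label and a tag in the titles, but whether a number stands for 1 pool is not stated. With the number as a replicate block the counts were 24, 21 and 24, and the calls of Cacnb2 (immature against mature) and Scn8a (immature against double negative) were lost. Deviations of same-numbered libraries correlated across genes at -0.009, 0.14 and -0.112 for the 3 pairs of groups.

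Signs turned as follows on the log2 scale, and the cause was not tested beyond the shift of all genes that each scaling brings. For immature against mature cells, quantile normalization gave -0.60 for Cacna1b, -0.28 for Cacna1d, -0.10 for Cacna1g, -0.17 for Cacna1h, -0.35 for Cacna2d2, -0.22 for Cacna2d4, -0.42 for Cacnb2, -0.33 for Scn8a, -0.06 for Scn9a, -0.07 for Scn2b, -0.69 for Trpc7, -0.29 for Trpm2, -0.53 for Trpm4 and -0.16 for Trpc4ap. Median-ratio rescaling gave -0.40 for Cacna1d, -0.02 for Trpc7, -0.21 for Trpm4 and -0.35 for Trpc4ap. For immature against double negative cells, quantile normalization gave -0.46 for Cacna1b, -0.37 for Cacna1c, -0.19 for Cacna2d1, -0.16 for Scn8a, -0.43 for Scn9a, -0.10 for Trpm4 and -0.25 for Trpc4ap, and median-ratio rescaling gave -0.12 for Cacna1b, -0.22 for Cacna1c, -0.19 for Cacna2d1, -0.24 for Scn9a and -0.25 for Trpc4ap. For mature against double negative cells, quantile normalization gave 0.09 for Cacna1a, 0.14 for Cacna1b, 0.17 for Scn8a and 0.03 for Trpv2, and median-ratio rescaling 0.08 for Cacna1a and 0.10 for Trpc4ap. Leaving out 1 library turned the sign of 10 differences that do not pass with all libraries, whose values ran for immature against mature cells Cacna1d from -0.01 to 0.03, Trpc7 from -0.17 to 0.36; for immature against double negative cells Cacna1b from -0.03 to 0.17, Cacna1c from -0.01 to 0.10, Cacnb1 from -0.18 to 0.14, Cacnb2 from -0.22 to 0.09, Scn9a from -0.08 to 0.11, Trpc4ap from 0.00 to 0.10; for mature against double negative cells Cacna1a from -0.10 to 0.06, Trpc4ap from -0.06 to 0.01.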

Other observations

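Channel genes under the filter, chosen after their values were seen and not tested, are described here and are no support for the patterns above. Trpm1, a channel of retinal bipolar cells and melanocytes, measured 0 and 0.0590 RPKM in immature, 0.329 and 0.329 RPKM in mature and 0.00615 and 0.00895 RPKM in double negative libraries, from 0 and 3, 115 and 130, and 2 and 3 reads. Its level in mature cells lay above that in all 4 other libraries. Scn4a, the sodium pore of skeletal muscle, measured 0.119 and 0.165 RPKM, 0.365 and 0.302 RPKM, and 0.0515 and 0.0437 RPKM in the same order. The reads were 2 and 4, 61 and 57, and 8 and 7. The exact 95% Poisson intervals of the immature libraries, 0.0144 to 0.429 and 0.0449 to 0.422 RPKM, include both mature values. Scn7a, a sodium-sensing channel known from glia, measured 0.512 and 0.395 RPKM in immature, 0.00575 and 0.00508 RPKM in mature and 0.0741 and 0.0779 RPKM in double negative libraries, from 9 and 10, 1 and 1, and 12 and 13 reads. The 5 glial markers summed to 10.4 and 11.1 RPKM in the same immature libraries, 0.326 and 0.247 RPKM in mature and 1.96 and 1.77 RPKM in double negative libraries, and their part in the Scn7a level was not tested. Trpc4 measured 0.312 and 0.180 RPKM in immature, 0.467 and 0.381 RPKM in mature and 0.0734 and 0.0767 RPKM in double negative libraries, from 6 and 5, 89 and 82, and 13 and 14 reads.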
